A study of Mus musculus with 16 samples.

Results

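The 10 genes described here are the ligand, the receptors and the direct response genes of fibroblast growth factor (FGF) signalling through the kinase ERK in mouse pluripotent stem cells. They were chosen by gene symbol as Fgf4, Fgfr1, Fgfr2, Dusp6, Dusp4, Spry2, Spry4, Etv4, Etv5 and Egr1, and each was found as 1 row among the 34042 rows of the count table. All 10 passed the filter on low counts, together with 18555 genes in all. RNA was sequenced from 16 libraries in 4 groups. The ES group held embryonic stem cells of the line E14IV-C in 2iL, a medium with a MEK inhibitor, at passages 12, 13, 15 and 20. The FS group held formative stem cells whose culture condition is labelled A3XR, a medium without added FGF (their titles call it AXR, and the growth protocol also names A3X), with line 5ar1 at passages 10, 12 and 14 and line 5ar3 at passages 12, 4 and 5. EpiSC_AFX held epiblast stem cells of line AFX6 in AFX medium at passages 12, 5 and 8, and EpiSC_AF those of line AF32 in AF medium at passages 13, 14 and 15. The labels give the media by name only. In the field's use of these names A is activin, F is FGF2, X is an inhibitor of the Wnt pathway and R is an inverse agonist of retinoic acid receptors, so that AFX is AF with the Wnt pathway inhibitor, which A3XR holds too. Libraries are given below in this order of passages, and replicates are numbered in it. No transgene or knockout is labelled in any group.

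FGF4 is secreted by pluripotent cells and binds receptor tyrosine kinases, mainly FGFR1 and FGFR2 in the early embryo. The receptors act through adaptors, RAS and RAF on MEK, which phosphorylates ERK. Active ERK raises transcription of the zinc finger factor EGR1 and of the ETS factors ETV4 and ETV5, and of inhibitors that close feedback loops: the Sprouty proteins SPRY2 and SPRY4, which act between the receptor and RAF, and the phosphatases DUSP6 and DUSP4, which remove phosphate from ERK. A MEK inhibitor blocks the step before ERK, and it is a part, not the whole, of the medium that keeps embryonic stem cells naive.

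Outside FS each group was 1 line, so line and medium cannot be told apart there. The other media differ from 2iL in more than the MEK inhibitor, and their parts cannot be told apart in the comparisons with ES. Replicates were passages of a line, in FS of 2 lines, and the fit by group shared its estimate of the spread over all groups. The p-values between groups therefore measure the spread between passages, with the difference between the FS lines in it. They do not measure how lines in general differ. Total counts were 22069338 to 33290250 per library. The mitochondrial ribosomal RNA gene mt-Rnr2 took 9.96% to 38.1% of the counts, with the highest share in ES at passage 12. Marker levels followed the labels: naive markers (Zfp42, Esrrb, Klf4, Tfcp2l1, Tbx3) summed to 2169 to 3414 CPM (counts scaled to a common library size) in ES and to 3.39 to 12.6 CPM elsewhere. Formative and primed markers (Otx2, Pou3f1, Dnmt3b, Sox3, Fgf5) summed to 39.7 to 103 CPM in ES, 840 to 2254 CPM in FS, 1006 to 1199 CPM in EpiSC_AFX and 949 to 1282 CPM in EpiSC_AF.

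Of the 10 genes, 5 had a RefSeq promoter entry on GRCm38.p6 (Fgf4, Fgfr2, Dusp6, Spry2 and Etv5). The 250 bases before the start of 3 of them are shown, because they stand for the ligand, which was lower outside ES, a feedback gene that was higher, and a feedback gene without a call against ES. The Fgf4 sequence is chr7:144861136-144861385 on the plus strand, that of Dusp6 is chr10:99262981-99263230 on the plus strand, and that of Spry2 is chr14:105896820-105897069 on the minus strand. Each is written 5′ to 3′ along its gene, and capitals mark the CCAAT box, which reads ATTGG where it lies on the opposite strand.
Fgf4: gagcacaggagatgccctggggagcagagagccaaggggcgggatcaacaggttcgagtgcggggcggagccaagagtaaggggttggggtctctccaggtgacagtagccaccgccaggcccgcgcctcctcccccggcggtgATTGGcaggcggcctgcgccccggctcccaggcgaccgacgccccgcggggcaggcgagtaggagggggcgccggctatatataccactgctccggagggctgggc
Dusp6: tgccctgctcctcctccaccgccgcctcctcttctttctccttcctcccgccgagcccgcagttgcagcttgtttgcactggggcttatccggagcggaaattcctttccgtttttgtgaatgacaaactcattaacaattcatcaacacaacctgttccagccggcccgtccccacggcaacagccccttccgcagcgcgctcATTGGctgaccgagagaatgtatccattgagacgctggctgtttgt
Spry2: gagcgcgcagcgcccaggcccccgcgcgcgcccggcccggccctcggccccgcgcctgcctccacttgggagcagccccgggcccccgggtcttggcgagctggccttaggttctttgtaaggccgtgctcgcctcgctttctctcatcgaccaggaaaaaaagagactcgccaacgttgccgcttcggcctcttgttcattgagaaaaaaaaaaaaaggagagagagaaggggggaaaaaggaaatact

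The CCAAT letters were found at position -106 before the Fgf4 start and at position -46 before the Dusp6 start, both on the opposite strand, and not in the Spry2 window. CCAAT on either strand is present in 33.8% of the 32851 promoter windows of this length. The letters CCGGAA, a form of the site bound by ETS factors such as ETV4 and ETV5, were searched on both strands. They do not overlap with CCAAT and occur in 12% of all windows. Shorter forms of the site were not searched. The letters CCGGAA are in none of these 3 windows, which says only that these letters are not there.

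**Figure D1:**
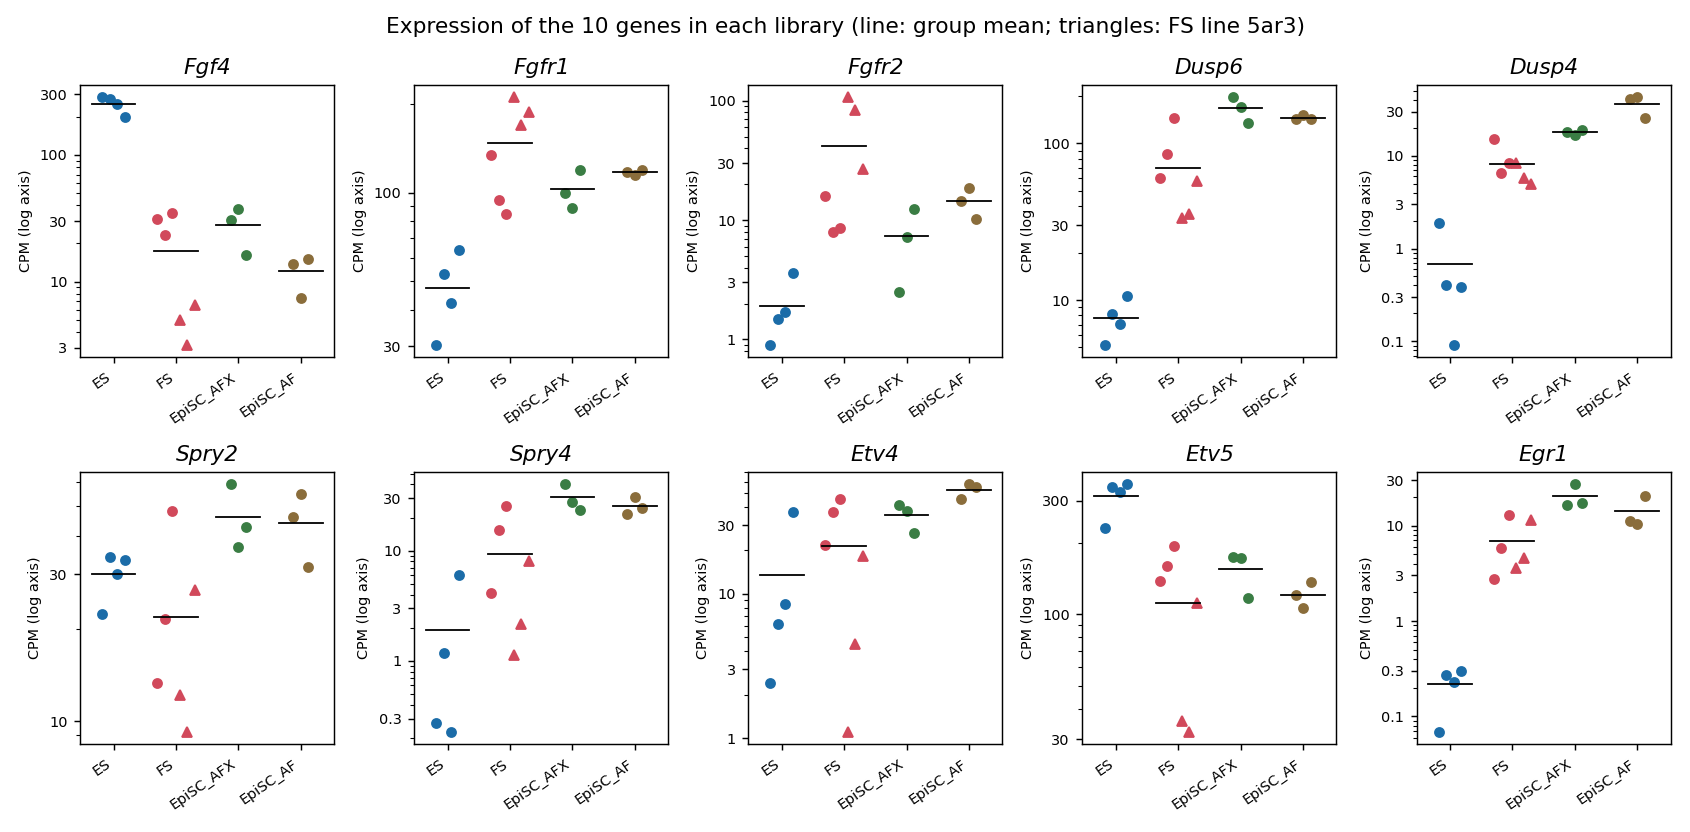
Expression of each of the 10 genes in the 16 libraries, as CPM on a log axis that differs between panels; points are libraries, ordered by line and passage within a group, triangles are FS line 5ar3 and short lines are group means. Fgf4 and Etv5 were highest in ES, and Dusp6, Dusp4 and Egr1 were lowest there in every library.

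Fgf4, the ligand, was higher in all 4 ES libraries than in any of the 12 others. Its level in ES was 285, 278, 253 and 199 CPM. EpiSC_AFX had 16.3, 30.6 and 37.6 CPM, and EpiSC_AF had 13.8, 7.45 and 14.97 CPM. In FS it ranged from 3.16 CPM through a median of 14.97 to 34.7 CPM. The ES libraries were well separated from the rest, and the FS libraries spread on both sides of EpiSC_AF. Against ES, Fgf4 fell by 3.86 on the log2 scale in FS (SE 0.55, edgeR adjusted p = 1.43e-05), by 3.17 in EpiSC_AFX (SE 0.70, adjusted p = 0.00121) and by 4.40 in EpiSC_AF (SE 0.75, adjusted p = 1.18e-04). In these bulk samples, fewer cells that express a gene and less RNA per cell cannot be told apart.

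The receptor genes went the other way. Fgfr1 had 30.3, 52.9, 42.2 and 63.6 CPM in ES. It ranged from 84.5 CPM through a median of 152 to 211 CPM in FS. EpiSC_AFX had 119, 99.8 and 88.9 CPM, and EpiSC_AF had 118, 114 and 119 CPM. Every library outside ES was above every ES library, and the FS values reached above those of both EpiSC groups. The log2 fold change of Fgfr1 against ES was 1.63 in FS (SE 0.25, edgeR adjusted p = 2.44e-05), 1.11 in EpiSC_AFX (SE 0.28, adjusted p = 0.00280) and 1.31 in EpiSC_AF (SE 0.28, adjusted p = 7.43e-04).

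Fgfr2 was low in ES, at 0.898, 1.49, 1.69 and 3.61 CPM. It varied widely among FS libraries (41.7 ± 42.8 CPM, SD, n = 6), from 7.90 through a median of 21.3 to 107 CPM. EpiSC_AFX had 12.4, 2.50 and 7.25 CPM, with the passage 5 library inside the ES range, and EpiSC_AF had 14.5, 18.4 and 10.3 CPM. Fgfr2 rose by 4.40 on the log2 scale in FS (SE 0.84, edgeR adjusted p = 2.67e-04) and by 2.87 in EpiSC_AF (SE 0.86, adjusted p = 0.00959). In EpiSC_AFX the log2 difference from ES was 1.91 (SE 0.86, adjusted p = 0.0702), which did not pass; without the passage 5 library it was 2.33 and passed (adjusted p = 0.0437), as it did with total-count scaling (0.0377) and with only the groups compared (0.0136). In the GENCODE M21 annotation, exons of Fgfr2 overlap those of Ctbp2 on the same strand, a gene with up to 5887 counts in a library, so reads of the shared stretch cannot be told apart.

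The phosphatase genes rose in every group outside ES. Dusp6, whose product acts on ERK in the cytoplasm, had 5.18, 8.13, 7.02 and 10.6 CPM in ES. It had 136, 197 and 170 CPM in EpiSC_AFX and 143, 152 and 143 CPM in EpiSC_AF. FS lay between, from 33.5 CPM through a median of 59.0 to 144 CPM, and its highest library reached into the EpiSC range. The log2 fold change of Dusp6 against ES was 3.16 in FS (SE 0.37, edgeR adjusted p = 1.06e-06), 4.43 in EpiSC_AFX (SE 0.42, adjusted p = 1.12e-07) and 4.23 in EpiSC_AF (SE 0.41, adjusted p = 1.71e-07).

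Dusp4, whose product acts on ERK in the nucleus, had 1.87, 0.407, 0.0911 and 0.383 CPM in ES. In FS it ranged from 4.99 CPM through a median of 7.48 to 15.2 CPM. EpiSC_AFX had 19.0, 18.0 and 16.7 CPM, and EpiSC_AF had 41.4, 42.8 and 25.7 CPM. The 4 groups did not overlap for Dusp4, with ES lowest, then FS, EpiSC_AFX and EpiSC_AF. Against ES it rose by 3.72 on the log2 scale in FS (SE 0.51, edgeR adjusted p = 6.79e-06), by 4.85 in EpiSC_AFX (SE 0.55, adjusted p = 1.18e-06) and by 5.88 in EpiSC_AF (SE 0.57, adjusted p = 1.48e-07).

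The Sprouty genes differed from each other. Spry2 had 22.3, 34.2, 30.0 and 33.5 CPM in ES. It had 42.8, 59.0 and 36.7 CPM in EpiSC_AFX and 46.1, 54.7 and 31.7 CPM in EpiSC_AF. In FS it ranged from 9.23 CPM through a median of 17.4 to 48.2 CPM, a spread that covered the whole ES range. Spry2 was not called against ES in any group: the log2 difference was -0.46 in FS (SE 0.35, edgeR adjusted p = 0.267), 0.62 in EpiSC_AFX (SE 0.41, adjusted p = 0.216) and 0.56 in EpiSC_AF (SE 0.41, adjusted p = 0.263). Without the FS library of line 5ar1 at passage 14, the difference of Spry2 in FS was -0.86 and passed the threshold (adjusted p = 0.0108), as it did with line 5ar3 alone (log2 -0.90, adjusted p = 0.0244). With only the groups compared, Spry2 passed in EpiSC_AFX (log2 0.65, edgeR adjusted p = 0.0203) and in EpiSC_AF (0.59, adjusted p = 0.0345), and in EpiSC_AFX also with passage as a covariate (1.41, adjusted p = 0.0160).

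Spry4 had 0.276, 1.17, 0.228 and 6.04 CPM in ES, where the passage 20 library stood above the others. EpiSC_AFX had 23.6, 40.3 and 27.5 CPM, and EpiSC_AF had 21.6, 30.5 and 24.7 CPM. FS ranged from 1.14 CPM through a median of 6.15 to 25.5 CPM and overlapped with ES at the low end and with both EpiSC groups at the high end. Spry4 rose against ES by 3.93 on the log2 scale in EpiSC_AFX (SE 0.98, edgeR adjusted p = 0.00289), by 3.68 in EpiSC_AF (SE 0.97, adjusted p = 0.00415) and by 2.24 in FS (SE 0.86, adjusted p = 0.0329). The FS call was lost without ES passage 12 (log2 1.91, adjusted p = 0.0818), 13 (2.05, adjusted p = 0.0861) or 15 (1.86, adjusted p = 0.0877), and without 5ar1 passage 12 (2.03, adjusted p = 0.0557) or 14 (1.64, adjusted p = 0.0891). It was also lost with line 5ar3 alone (0.94, adjusted p = 0.341), without the low-count filter (adjusted p = 0.0879) and with only the groups compared (adjusted p = 0.0651). Without ES passage 20 the difference was 4.01 in FS (adjusted p = 0.00238), 5.69 in EpiSC_AFX and 5.44 in EpiSC_AF.

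The ETS factor genes differed in pattern. Etv5 had 231, 342, 325 and 352 CPM in ES, above every other library. FS ranged from 32.2 CPM through a median of 125 to 193 CPM, EpiSC_AFX had 118, 175 and 173 CPM, and EpiSC_AF had 121, 106 and 136 CPM. Etv5 fell by 1.49 on the log2 scale in FS (SE 0.38, edgeR adjusted p = 0.00296) and by 1.37 in EpiSC_AF (SE 0.48, adjusted p = 0.0223). In EpiSC_AFX the log2 difference was -1.01 (SE 0.47, adjusted p = 0.0803) and did not pass. With only the groups compared it was -0.98 and passed (adjusted p = 0.00202), and with passage as a covariate it was 0.066 (adjusted p = 0.923). The EpiSC_AF call for Etv5 was lost without its passage 13 library (adjusted p = 0.0611) or its passage 14 library (adjusted p = 0.0759), without the low-count filter (0.0782) and with total-count scaling (0.0661).

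Etv4 had 2.42, 6.14, 8.52 and 37.1 CPM in ES, so that the passage 20 library alone reached the EpiSC_AFX range. EpiSC_AFX had 26.6, 41.3 and 37.8 CPM, and EpiSC_AF had 45.5, 57.8 and 54.8 CPM. FS ranged from 1.11 CPM, below every ES library, through a median of 20.1 to 45.6 CPM. Etv4 was called in none of the 3 comparisons with ES: the log2 difference was 0.65 in FS (SE 0.76, edgeR adjusted p = 0.472), 1.37 in EpiSC_AFX (SE 0.88, adjusted p = 0.202) and 1.95 in EpiSC_AF (SE 0.88, adjusted p = 0.0711). Without ES passage 20 the difference was 3.19 in EpiSC_AF (adjusted p = 0.00779) and 2.60 in EpiSC_AFX (adjusted p = 0.0226), which both passed, and 1.89 in FS (adjusted p = 0.0534), which did not. With passage as a covariate Etv4 passed in all 3 comparisons, with a log2 difference of 2.60 in FS (edgeR adjusted p = 0.00195), 4.79 in EpiSC_AFX (adjusted p = 2.77e-04) and 2.94 in EpiSC_AF (adjusted p = 4.68e-04). That fit puts 1 slope on all groups, whereas in EpiSC_AFX Etv4 was higher at passage 5 (41.3 CPM) than at passage 12 (26.6 CPM). The value of 4.79 depends on that slope. With only the groups compared Etv4 passed in EpiSC_AF (1.98, adjusted p = 0.0307), and with line 5ar3 alone the FS difference was -0.76 (adjusted p = 0.446).

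Egr1, an immediate early gene, was near the detection floor in ES, at 0.0691, 0.271, 0.228 and 0.298 CPM, which are 1 to 7 counts. FS ranged from 2.78 CPM through a median of 5.18 to 12.9 CPM. EpiSC_AFX had 17.4, 16.3 and 27.2 CPM, and EpiSC_AF had 11.3, 10.4 and 20.6 CPM. Every library outside ES was above ES, and every EpiSC_AFX library was above every FS library. The rise against ES was 4.88 on the log2 scale in FS (SE 0.56, edgeR adjusted p = 7.60e-07), 6.45 in EpiSC_AFX (SE 0.60, adjusted p = 9.43e-08) and 5.92 in EpiSC_AF (SE 0.59, adjusted p = 2.34e-07). Of the 10 genes Egr1 had the widest range of group means, 6.17 on the log2 CPM scale, followed by Dusp4 with 6.11 and Spry4 with 4.97, and Spry2 had the narrowest with 1.28.

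Counted over the 10 genes, 6 were higher in FS than in ES (Fgfr1, Fgfr2, Dusp6, Dusp4, Spry4, Egr1) and 2 were lower (Fgf4, Etv5). Of all genes tested, 62.8% were called in that comparison, 32.9% higher and 29.9% lower, so 8 of 10 is read against a background in which most genes differ. In EpiSC_AFX 5 were higher and 1 lower than in ES, where 54.7% of all genes were called (28.5% higher, 26.2% lower). In EpiSC_AF 6 were higher and 2 lower, where 56.7% of all genes were called (29.7% higher, 27.0% lower). The libraries did not overlap with ES for 7 members in FS, 8 in EpiSC_AFX and 9 in EpiSC_AF, beside 46.3%, 58.7% and 62.3% of all genes. The median log2 fold change of the 10 was 1.94 in FS, 1.64 in EpiSC_AFX and 2.41 in EpiSC_AF, beside 0.04, 0.01 and 0.01 over all genes. The 3 comparisons share the ES libraries. Scaling by total counts alone moved the median of all genes to 0.40, 0.25 and 0.29, and no call of a member against ES changed sign under it. ES passage 12, the library with the highest mt-Rnr2 share, was the lowest ES library for 7 of the 10 genes, and 41.0% of all genes were lowest there. With mitochondrial ribosomal RNA genes left out, the counts of members called against ES were again 8, 6 and 8, beside 62.9%, 54.7% and 56.7% of all genes.

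**Figure D2:**
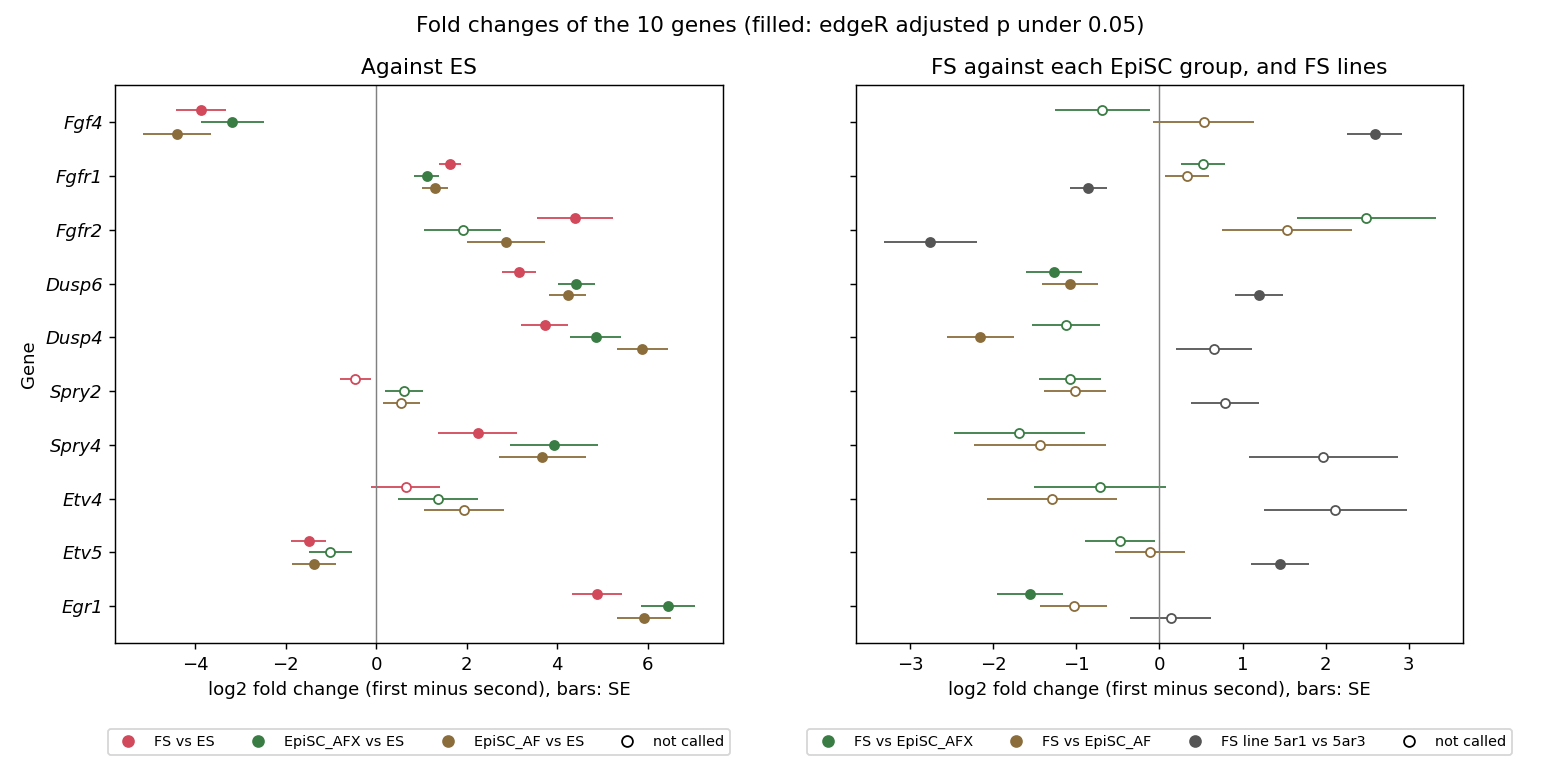
Log2 fold change (first group minus second) of each gene with its SE, against ES on the left, and for FS against each EpiSC group and between the FS lines on the right; filled points had an edgeR adjusted p under 0.05. On the left Fgf4 and Etv5 lie below 0 in all 3 comparisons, while on the right Dusp6 is lower in FS than in both EpiSC groups.

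Per kilobase of exon model, which allows genes to be compared, the leading members differed between groups. In ES the highest mean levels were those of Fgf4 (79.5 CPM per kb) and Etv5 (76.2 CPM per kb), followed by Spry2 (14.4 CPM per kb), and Egr1 was lowest (0.0483 CPM per kb). In FS the order differed between the lines. In 5ar1 it was Etv5 (39.8 CPM per kb), Dusp6 (30.9 CPM per kb) and Spry2 (13.3 CPM per kb), with Fgfr1 at 10.6 CPM per kb, and in 5ar3 it was Fgfr1 (19.2 CPM per kb), Etv5 (14.6 CPM per kb) and Dusp6 (13.5 CPM per kb). In both EpiSC groups Dusp6 was first, with 53.5 CPM per kb in EpiSC_AFX and 46.7 in EpiSC_AF, and Etv5 was next, with 37.8 and 29.5 CPM per kb. Fgfr1 was above Fgfr2 in all 4 group means, for example 4.79 against 0.186 CPM per kb in ES and 14.9 against 4.03 CPM per kb in FS. The exon models of Fgf4 and Fgfr2 include long transcripts, which lowers these values.

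FS cells were compared with each EpiSC group, which differ from FS in line and in medium. Both EpiSC media add FGF2 and lack the R component of A3XR, and AF also lacks its Wnt pathway inhibitor. The digit in the name A3XR is not decoded here, and doses of shared parts such as activin may differ too. These differences cannot be told apart. Dusp6 and Egr1 were lower in FS than in EpiSC_AFX, and Dusp6 and Dusp4 were lower in FS than in EpiSC_AF. No member was called higher, where 2.89% of all genes were against EpiSC_AFX and 7.84% against EpiSC_AF. Of all genes tested 5.00% were called in FS against EpiSC_AFX and 16.6% against EpiSC_AF, and the calls in the lower direction were 2.10% and 8.81%. The median log2 difference of the 10 genes was -0.90 against EpiSC_AFX and -1.02 against EpiSC_AF, beside 0.04 over all genes in each. The libraries did not overlap for Dusp4 and Egr1 against EpiSC_AFX and for Dusp4 against EpiSC_AF, beside 9.89% and 20.4% of all genes.

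Dusp6 fell by 1.27 against EpiSC_AFX (log2, SE 0.34, edgeR adjusted p = 0.0362) and by 1.07 against EpiSC_AF (SE 0.34, adjusted p = 0.0368), and Egr1 fell by 1.56 against EpiSC_AFX (SE 0.40, adjusted p = 0.0297). These calls were close to the threshold. With line 5ar1 alone, Dusp6 was at -0.81 against EpiSC_AFX (edgeR adjusted p = 0.119) and at -0.61 against EpiSC_AF (adjusted p = 0.140). No member was then called against EpiSC_AFX, beside 4.10% of all genes. Over single libraries left out, the adjusted p of Dusp6 reached 0.156 against EpiSC_AFX and 0.108 against EpiSC_AF, and that of Egr1 against EpiSC_AFX reached 0.184. The count of members called against EpiSC_AFX was 0 without any one of the EpiSC_AFX libraries, beside 1.98% to 2.84% of all genes. It was also 0 without 5ar3 passage 5, beside 4.14%. The count was 1 without 5ar1 passage 12 (4.32% of all genes) or 5ar3 passage 12 (3.92%), and 3 without 5ar1 passage 14 (6.62%). Against EpiSC_AF it was 1 without any one EpiSC_AF library, beside 9.42% to 10.4% of all genes. It was 1 as well without 5ar1 passage 10 (15.2% of all genes) or 5ar3 passage 4 (17.5%) or 5 (16.2%). Without 5ar1 passage 14 it was 4 (18.8%).

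Dusp4 differed most firmly. It fell by 2.16 against EpiSC_AF (log2, SE 0.40, edgeR adjusted p = 0.00124), all 6 FS libraries lay below all 3 EpiSC_AF libraries, and the call held with each library left out (adjusted p at most 0.00966) and with each of the 12 other settings (at most 0.0134). Against EpiSC_AFX, Dusp4 was also lower in all 6 FS libraries, with a log2 difference of -1.13 that did not pass (SE 0.41, adjusted p = 0.130). Without 5ar1 passage 10, its highest FS library, that difference was -1.40 and passed (adjusted p = 0.0488).

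The other members were not called between FS and the EpiSC groups. Spry2 was at -1.08 against EpiSC_AFX (log2, SE 0.37, edgeR adjusted p = 0.113) and at -1.01 against EpiSC_AF (SE 0.37, adjusted p = 0.0740). Without 5ar1 passage 14, Spry2 was at -1.47 and -1.41 and passed in both comparisons (adjusted p = 0.00583 and 0.00273). Spry4 was at -1.69 and -1.43 and Etv4 at -0.71 and -1.30, with SEs of 0.78 to 0.79. Fgf4 was at -0.69 against EpiSC_AFX and 0.53 against EpiSC_AF, and Etv5 at -0.47 and -0.12. The receptor genes had positive differences, 0.52 and 0.33 for Fgfr1 and 2.49 and 1.53 for Fgfr2. Against EpiSC_AFX, Fgfr2 passed as higher in FS by DESeq2 (log2 2.50, adjusted p = 0.0274). With 1 mean per line Fgfr2 passed too (1.91, edgeR adjusted p = 0.0289), and Fgf4 passed as lower (-1.21, adjusted p = 0.00747). With passage as a covariate (1 slope for all groups) Spry4 passed at -3.13 (edgeR adjusted p = 0.0073). Etv4 (-2.19, adjusted p = 0.0326) and Spry2 (-1.42, adjusted p = 0.0203) then passed too. Egr1 against EpiSC_AF was at -1.03 (SE 0.40, adjusted p = 0.0898), and passed without 5ar1 passage 14 (log2 -1.31, adjusted p = 0.0218) and without 5ar3 passage 12 (log2 -1.25).

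The EpiSC groups differ in the Wnt pathway inhibitor, which only EpiSC_AFX had, in line and in passage. The passages were 12, 5 and 8 in EpiSC_AFX and 13, 14 and 15 in EpiSC_AF, so these differences cannot be told apart. Between them 0 of 10 genes were called, where 4.26% of all genes were (1.43% higher in EpiSC_AFX, 2.83% lower). The libraries did not overlap for 3 members (Fgf4, Dusp4, Etv4), beside 33.9% of all genes. By DESeq2 the count was 0 as well, beside 7.09% of all genes. At an unadjusted edgeR p under 0.05 it was 1, Dusp4, beside 17.5% of all genes. Dusp4 was lower in all 3 EpiSC_AFX libraries than in EpiSC_AF, with a log2 difference of -1.03 (95% interval -1.98 to -0.08, from the SE, edgeR adjusted p = 0.281). With only these groups in the fit Dusp4 was called (adjusted p = 0.00932), where 13.6% of all genes were. Dusp6 was measured most closely of the feedback genes that were called against ES in both groups, with a difference of 0.20 and an interval of -0.59 to 0.98. For Fgf4 the interval was -0.13 to 2.57, for Etv4 -2.42 to 1.25 and for Spry4 -1.59 to 2.10, so sizable differences in either group are not shown to be absent.

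Markers of other cell types differed between these groups. Primitive streak markers (T, Eomes, Mixl1, Gsc) summed to 135 to 336 CPM in EpiSC_AF and to at most 49.0 CPM in any other library, and primitive endoderm markers (Gata6, Gata4, Sox17, Pdgfra, Sox7) to 37.7 to 116 CPM in EpiSC_AF, 0.644 to 27.1 CPM in EpiSC_AFX and at most 3.46 CPM in FS. Fibroblast markers (Col1a1, Col1a2, Thy1, Dcn, Lum) summed to 27.2 to 55.4 CPM in EpiSC_AF, 16.2 to 32.6 CPM in FS, 10.8 to 17.1 CPM in EpiSC_AFX and at most 1.06 CPM in ES, where Dcn was at 0 and Lum at or under 3 counts. Neuroectoderm markers (Sox1, Pax6, Nes) summed to 191 to 402 CPM in FS, 375 to 665 CPM in EpiSC_AFX, 271 to 508 CPM in EpiSC_AF and 21.99 to 31.4 CPM in ES. Nes made up most of these sums. Its mean was 249 CPM in FS line 5ar3 and 283 CPM in 5ar1. In EpiSC_AFX it was 495 CPM, in EpiSC_AF 417 CPM and in ES 23.4 CPM. Sox1 alone had a mean of 22.9 CPM in FS line 5ar3, 1.18 CPM in 5ar1, 0.944 CPM in EpiSC_AFX, 6.46 CPM in EpiSC_AF and 1.35 CPM in ES. Pax6 had 4.26 CPM in 5ar3, 1.21 CPM in 5ar1, 0.267 CPM in EpiSC_AFX, 0.870 CPM in EpiSC_AF and 0.236 CPM in ES. Sox1 and Pax6 were thus highest in 5ar3, while Nes was lower there than in 5ar1 and both EpiSC groups. Trophoblast markers (Cdx2, Elf5, Krt7, Gata3) summed to at most 14.2 CPM in any library, and Elf5 was at 0 in ES, FS and EpiSC_AFX. Their part in the differences of Dusp4, Dusp6 and Egr1, and in those between the FS lines, was not tested.

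The FS lines, 5ar1 and 5ar3, carry the same culture label, A3XR, although the growth protocol names A3X or A3XR without saying which line grew in which. They differed in 5 of the 10 genes, where 3.88% of all genes were called (1.86% higher in 5ar1, 2.02% lower). The libraries of the lines did not overlap for these 5 and for Etv4, beside 18.7% of all genes. Fgf4 had 31.4, 23.4 and 34.7 CPM in 5ar1 and 6.58, 5.01 and 3.16 CPM in 5ar3, with no overlap. Fgfr2 had 15.8, 7.90 and 8.53 CPM in 5ar1 and 26.8, 107 and 84.3 CPM in 5ar3. Thus the line with more ligand RNA had less RNA of both receptors: Fgfr1 had 135, 94.6 and 84.5 CPM in 5ar1 and 188, 211 and 169 CPM in 5ar3. Fgf4 was 2.59 higher in 5ar1 (log2, SE 0.33, edgeR adjusted p = 2.47e-04), Fgfr2 2.76 lower (log2 -2.76, SE 0.56, adjusted p = 0.0108) and Fgfr1 lower by a smaller amount (log2 -0.86, SE 0.22, adjusted p = 0.0412).

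Of the response genes, Dusp6 and Etv5 differed between the lines. Dusp6 had 60.5, 85.5 and 144 CPM in 5ar1 and 57.4, 33.5 and 35.7 CPM in 5ar3 (log2 1.20, SE 0.29, edgeR adjusted p = 0.0280). Etv5 had 138, 159 and 193 CPM in 5ar1 and 112, 35.6 and 32.2 CPM in 5ar3 (log2 1.45, SE 0.35, adjusted p = 0.0282). In both genes the 5ar3 passage 12 library lay nearer to 5ar1 than the passage 4 and 5 libraries did. The other 5 were not called: Etv4 was at 2.12, Spry4 at 1.97, Spry2 at 0.79, Dusp4 at 0.66 and Egr1 at 0.13. The median of the 10 genes was 0.99, beside -0.01 over all genes.

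The line difference leans on few libraries. Line and passage are partly confounded, since 5ar3 alone had passages 4 and 5. Leaving those libraries out, an alternative chosen after seeing the data, left 5ar3 with 1 library, so only the differences are given. They were 2.18 for Fgf4 (log2), -1.32 for Fgfr2, -0.85 for Fgfr1, 0.75 for Dusp6 and 0.55 for Etv5. The count of members called was 1 without 5ar1 passage 12 or 14, beside 1.88% and 1.57% of all genes. It was 2 without 5ar3 passage 4 or 5, beside 2.06% and 1.90%. With all libraries the share of all genes was 3.88%. Fgf4 was the member called with every single library left out (log2 2.34 to 2.84, adjusted p at most 0.00305).

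Because the lines differ, the FS means against EpiSC combine unlike values. In 5ar1, Fgf4 was 1.31 above EpiSC_AF (log2, SE 0.31, edgeR adjusted p = 0.00762), and in 5ar3 it was below it (log2 -1.29, SE 0.32, adjusted p = 0.0114). Against EpiSC_AFX, Fgf4 was at 0.08 in 5ar1 and at -2.51 in 5ar3 (SE 0.33, adjusted p = 1.34e-04). Fgfr2 in 5ar3 was 3.29 above EpiSC_AFX (SE 0.58, adjusted p = 0.00164), and in 5ar1 the difference was 0.54 (SE 0.54). With 5ar3 alone in place of both lines, 9 of the 10 genes were called against EpiSC_AFX and 7 against EpiSC_AF, beside 9.67% and 17.6% of all genes. With 5ar1 alone the counts were 0 and 2, beside 4.10% and 17.5% of all genes.

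**Figure D3:**
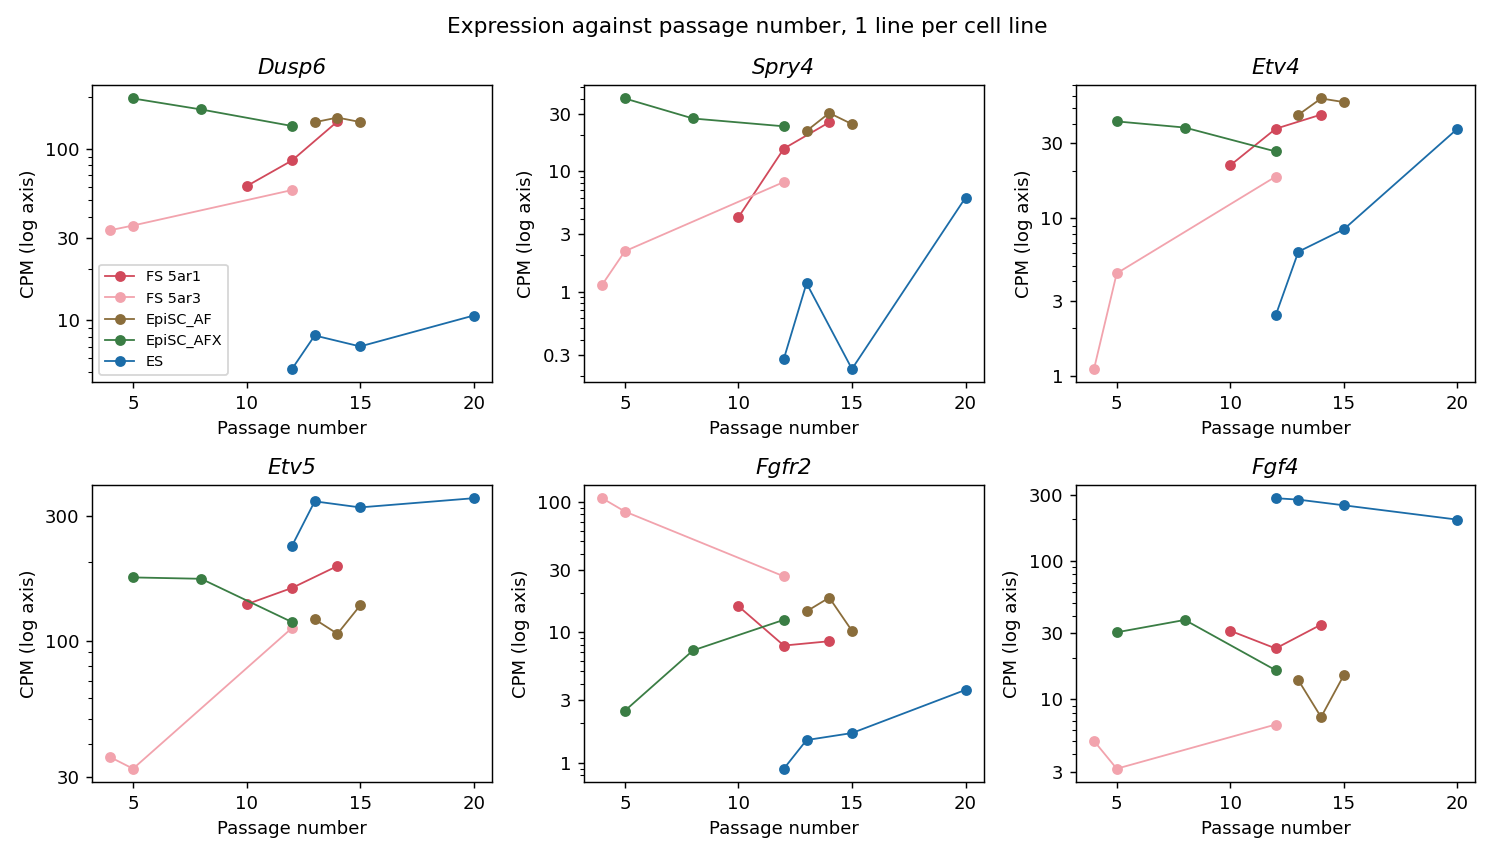
Level of 6 of the genes (Dusp6, Spry4, Etv4, Etv5, Fgfr2, Fgf4; CPM, log axis) against passage number, with the libraries of a line joined by a line. In both FS lines and in ES, Spry4 and Etv4 were highest in the library of the highest passage, and in EpiSC_AFX both were lowest at passage 12.

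Within lines, several response genes shared their highest library. In 5ar1 the passage 14 library was highest for 7 genes (Fgf4, Dusp6, Spry2, Spry4, Etv4, Etv5, Egr1), and in 5ar3 the passage 12 library was highest for the same 7. Both are the latest passage of their line, and 35.7% and 35.3% of all genes were highest in those libraries. In ES the passage 20 library was highest for 7 genes (Fgfr1, Fgfr2, Dusp6, Spry4, Etv4, Etv5, Egr1), where 24.6% of all genes were. In neither EpiSC group was the latest passage highest for most members. In EpiSC_AFX the earliest passage, 5, was highest for 5 genes (Dusp6, Spry2, Spry4, Etv4, Etv5), beside 26.3% of all genes, and the latest, 12, was lowest for 5 (Fgf4, Dusp6, Spry4, Etv4, Etv5), beside 38.1%. In EpiSC_AF the middle passage, 14, was highest for 6 (Fgfr2, Dusp6, Dusp4, Spry2, Spry4, Etv4), beside 33.7%. These ranks describe 1 library each and carry no test.

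A common slope on passage number was fitted within lines. By edgeR 0 of 10 genes were called, as were 0.00539% of all genes, and DESeq2 called 1, Etv4, as it did 0.110% of all genes. At an unadjusted p under 0.05 there were 5 members (Etv4, Egr1, Spry4, Etv5, Dusp6), all with positive slopes, beside 8.87% of all genes. The slope of Etv4 was 0.29 log2 units per passage (SE 0.06, edgeR adjusted p = 0.322), that of Spry4 0.28 (SE 0.08, adjusted p = 0.531) and that of Egr1 0.18 (SE 0.05, adjusted p = 0.523). Etv4 passed in edgeR without EpiSC_AFX passage 12 (0.37 per passage, adjusted p = 0.0118) or passage 5 (0.35, adjusted p = 0.0337). With ES passage 20 left out, the slope of Spry4 was 0.18.

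The other genes of the pathway were taken from 5 lists with 64 genes, of which 62 could be tested; Fgf2 and Spry3 did not pass the filter on low counts. In FS against ES, 33 of the 62 were higher and 15 lower, to be read against 32.9% higher and 29.9% lower over all genes (62.8% in all), as are the counts of the single lists. Among the FGF ligands 6 were higher and 3 lower of 9. Fgf5, a marker ligand of the formative and primed epiblast, had 66.9 ± 34.1 CPM (SD) over the 6 FS libraries beside 0.182 ± 0.0933 CPM over the 4 ES libraries, and Fgf15 had 24.9 ± 14.1 and 0.145 ± 0.0996 CPM. Fgf10 and Fgf3 were lower, at 0.105 ± 0.205 and 0.313 ± 0.217 CPM in FS against 6.11 ± 1.17 and 5.95 ± 1.87 CPM in ES. Together with Fgf4, the ligand genes therefore moved in both directions. The median log2 fold change of the 9 ligands was 5.01, and 2.14 with Fgf1 and Fgf8, which were at or under 3 counts in every library of a group, set to their bound.

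Among the receptor and adaptor genes 4 were higher and 6 lower of 12, with a median of -0.49. Gab1, a docking protein downstream of the receptors, fell by 3.44 on the log2 scale (SE 0.28, edgeR adjusted p = 1.17e-08), from 218 ± 57.3 CPM in ES to 20.1 ± 8.70 CPM in FS, and Frs3, an FGF receptor adaptor, fell by 1.57. Sos2, an exchange factor for RAS, and Ptpn11, the phosphatase SHP2, rose by 1.28 and 1.05. In the RAS-RAF-MEK-ERK cascade 5 were higher and 3 lower of 14, near the share over all genes, and the median was 0.09. The kinase gene Braf rose by 1.17 and Rras2 by 0.68, while Rps6ka1, an ERK-activated kinase, fell by 1.55 and the scaffold gene Ksr1 by 1.22.

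Among the feedback inhibitors 8 were higher and 1 lower of 12 in FS against ES, with a median of 0.63. Spred3 had 31.6 ± 17.0 CPM in FS beside 2.00 ± 0.469 CPM in ES (log2 3.96, SE 0.39, edgeR adjusted p = 1.21e-07). Spry1, the third Sprouty gene tested, rose by 2.30 (SE 0.20, adjusted p = 1.93e-08), and the phosphatase gene Dusp1 fell by 0.59 (SE 0.20, adjusted p = 0.0160). Among the response genes 10 were higher and 2 lower of 15, with a median of 2.07, or 1.41 with 4 genes at the floor in ES set to their bound (Egr2, Egr3, Fosb, Fosl1). Ier3 and Myc rose by 2.57 and 2.49, and Mcl1 and Ier2 fell by 1.13 and 1.09. EpiSC_AFX had 35 higher and 12 lower and EpiSC_AF 34 higher and 9 lower of the same 62 genes, against the same ES libraries, where 54.7% and 56.7% of all genes were called.

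**Figure D4:**
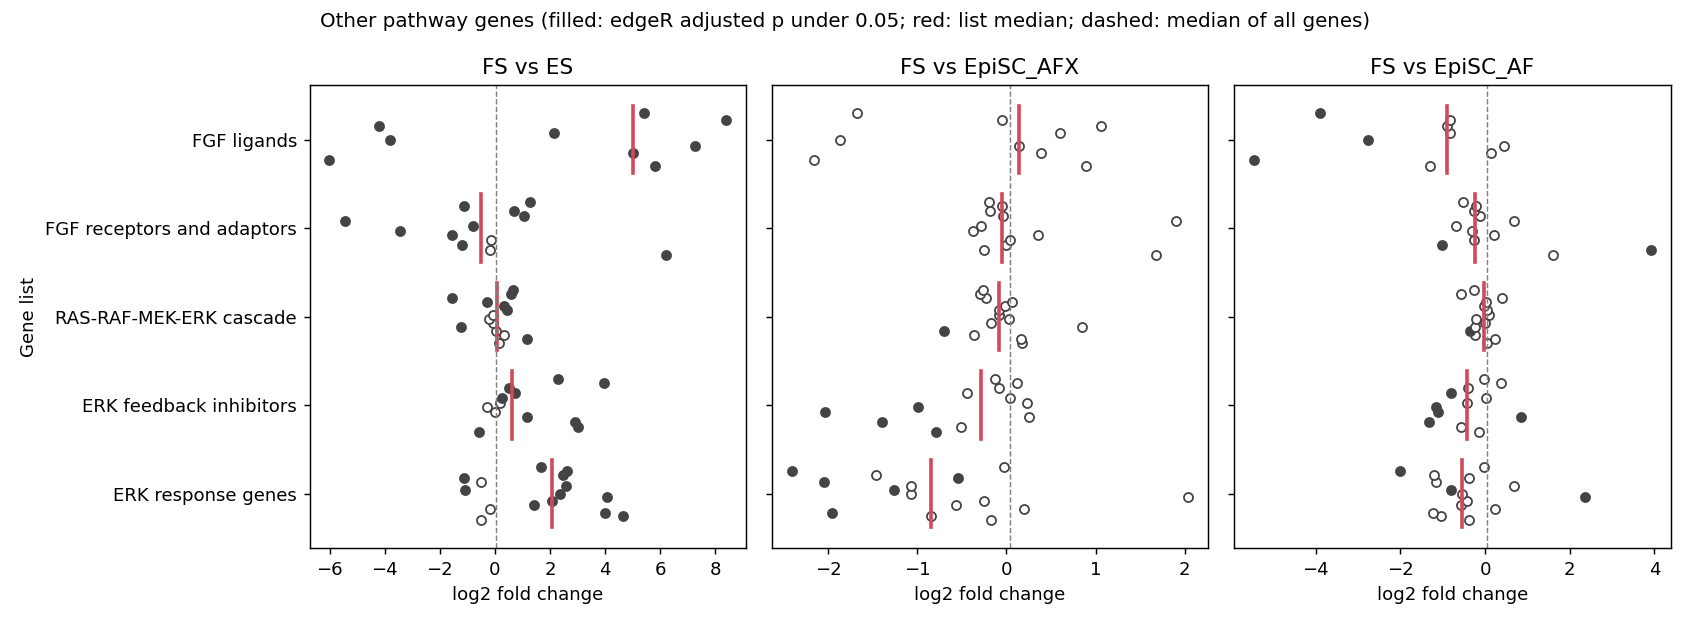
Log2 fold changes of the genes of the 5 pathway lists, the 10 members left out, in FS against ES, EpiSC_AFX and EpiSC_AF; each point is a gene, filled where the edgeR adjusted p was under 0.05, red lines are list medians, the dashed line is the median of all genes, and the x axis differs between panels. Against ES, 33 list genes were higher and 15 lower, and against EpiSC_AFX 10 were lower and 0 higher.

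Against EpiSC_AFX, 10 of the 62 genes were lower in FS and 0 higher, beside 2.10% and 2.89% of all genes, among them 4 feedback inhibitors and 5 response genes. The median log2 difference was -0.29 for the feedback inhibitors and -0.85 for the response genes, beside 0.04 over all genes. With total-count scaling, 5 of the 62 were called, beside 3.92% of all genes. Dusp9, a further ERK phosphatase, had 10.9 ± 1.92 CPM in FS (SD, n = 6) beside 44.9 ± 12.3 CPM in EpiSC_AFX (n = 3; log2 -2.04, SE 0.21, edgeR adjusted p = 2.54e-05). Dusp5 fell by 1.39, Phlda1 by 2.41 and Junb by 2.04. Against EpiSC_AF 11 were lower and 3 higher, beside 8.81% and 7.84% of all genes. Dusp5 fell by 1.34 and Phlda1 by 2.01 in this comparison too, Il17rd, a receptor-like inhibitor of FGF signalling, fell by 1.17 and Fgf8 by 3.91 (SE 0.79, adjusted p = 0.00281), and the phosphatase gene Dusp7 rose by 0.85. Fgfrl1 fell by 1.02 and Ier2 by 0.81. Between the EpiSC groups 2 of 62 were called, both higher in EpiSC_AFX, and 4 by DESeq2, beside 4.26% and 7.09% of all genes.

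For the 3 members with the widest range of group means, the genes of most similar pattern were taken as those with the smallest mean absolute difference in centred log2 CPM over the 16 libraries, among 12429 genes. For Egr1 they were Has2 (0.50), Ap1s3 (0.52) and Tmcc3 (0.55), for Dusp4 they were Vav3 (0.50), Krt18 (0.54) and Ppp1r14c (0.55), and for Spry4 they were Myc (0.59), Epha1 (0.65) and Psors1c2 (0.87). Like Spry4, Epha1 was lowest in ES (mean 1.24 CPM), then 24.1 CPM in FS, 53.3 CPM in EpiSC_AF and 59.3 CPM in EpiSC_AFX. Krt18 followed the order of Dusp4, with 2.87 CPM in ES, 93.2 CPM in FS, 164 CPM in EpiSC_AFX and 223 CPM in EpiSC_AF.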

How the data were processed

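Libraries were made with a directional kit from total RNA (Trizol lysis, column clean-up), per the labels' protocols. Reads were processed with Trim Galore, TopHat2 2.1.0 and featureCounts 1.5.0 on mm10, per the submitters' processing notes; their order, the gene annotation and the strand setting are not given in the sources used here, so antisense and overlapping genes are uncertain. The authors deposited raw counts per gene. Another 6 columns matched no sample and were not used.

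Counts of the 16 libraries were fitted with edgeR 4.0.16 in R 4.3.3 (filterByExpr by group, TMM, robust quasi-likelihood, 1 mean per group). Benjamini-Hochberg adjustment ran over all 18555 genes tested within each comparison, and a gene was called at an adjusted p under 0.05. CPM is on the TMM scale. The comparison of lines used 1 mean per line, and the passage fit added a common slope. The 95% intervals are normal approximations from the SE. The scripts were tested on simulated data. Alternatives included DESeq2 1.42.0. No library pair of a line agreed within sampling noise (lowest chi-square per degree of freedom 8.40).

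Samples were grouped by the labelled culture condition. The 10 members and all lists were chosen with earlier results of these data known. All members were named, and of each list (FGF ligands, receptors and adaptors, RAS-RAF-MEK-ERK cascade, feedback inhibitors, response genes) up to 2 called genes per direction with the largest change in FS against each group whose higher group averaged at least 5 CPM. A gene that this rule names is not reported here. For the comparisons with EpiSC the lists are described by these genes and their counts. Marker lists covered naive, formative and primed, core pluripotency, primitive endoderm, primitive streak, neuroectoderm, fibroblast and trophoblast genes; core pluripotency markers (Pou5f1, Sox2, Nanog) summed to 579 to 1881 CPM over all libraries. Promoter windows come from RefSeq on GRCm38.p6, and gene models from GENCODE M21 on GRCm38.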

Additional observations from a re-analysis of the deposited data

Results flagged for a closer look

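By Dixon's criterion on CPM, 1 library stood apart from its group in 2 of 20 sets (10 genes in each of FS and ES). Its chance rate of about 1 in 20 assumes normal values, and the log scale was not tried. Both libraries were the highest of their group for that gene, and FS pools 2 lines. Dusp4 in FS was at 15.2 CPM in line 5ar1 passage 10, while the other FS libraries were at 4.99 to 8.36 CPM. Spry4 in ES was at 6.04 CPM at passage 20, while the other ES libraries were at 0.228 to 1.17 CPM.

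The FS lines lay on opposite sides of an EpiSC group for 4 genes whose difference between the lines passed the edgeR test. Sides were taken by the sign of the difference alone. The log2 difference, 5ar1 minus 5ar3, was 2.59 for Fgf4 and 1.45 for Etv5, with the lines on opposite sides of both EpiSC_AF and EpiSC_AFX. Against EpiSC_AFX, however, line 5ar1 did not pass for Fgf4 (log2 0.084, edgeR adjusted p = 0.935) or Etv5 (0.076, adjusted p = 0.954). The difference between the lines was -0.86 for Fgfr1 and -2.76 for Fgfr2, with the lines on opposite sides of EpiSC_AF. For Fgf4 both lines differed from EpiSC_AF beyond the threshold, at 1.31 in 5ar1 and -1.29 in 5ar3. For the other genes 1 of the lines at most did.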

How the results depend on the processing

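Percentages in brackets are the shares of all genes called in the same setting. Against ES with 1 library left out, 7 to 8 members were called in FS (58.4% to 64.5%). The counts were 6 to 7 in EpiSC_AFX (47.0% to 54.5%) and 7 to 9 in EpiSC_AF (49.6% to 56.6%). With only the groups compared these counts were 7 (58.3%), 9 (55.7%) and 10 (59.6%). With passage as a covariate they were 9 (56.9%), 8 (48.6%) and 9 (57.5%). In the other comparisons the number of members called moved by over 1.5 times. For FS against EpiSC_AFX (2 called, 5.00%) it was 0 with line 5ar1 alone (4.10%) and with only the groups compared (3.23%). It was 0 as well with total-count scaling (3.92%) and without FS passages 4 and 5 (4.55%). It was 1 without the low-count filter (2.47%), 4 with 1 mean per line (7.70%) and 5 with passage as a covariate (5.60%). With 5ar3 alone it was 9 (9.67%), and with 1 library left out 0 to 3 (1.98% to 6.62%). For FS against EpiSC_AF (2 called, 16.6%) it was 7 with 5ar3 alone (17.6%). It was 1 without the filter (8.71%), with only the groups compared (14.8%) and with passage as a covariate (14.3%). It was 1 as well with total-count scaling (13%) and without FS passages 4 and 5 (18.2%). With 1 library left out it was 1 to 4 (9.42% to 18.8%). Between the FS lines (5 called, 3.88%) it was 2 without the filter (2.34%) and with only the groups compared (1.22%). It was 2 as well with passage as a covariate (2.32%) and with total-count scaling (2.69%). With 1 library left out it was 1 to 5 (1.57% to 8.45%). Between the EpiSC groups (0 called, 4.26%) it was 1 with only the groups compared (13.6%). The passage slope had 1 by DESeq2 (0.110%) and 0 to 1 with 1 library left out (at most 0.0523%). Of the other pathway genes, the count between the EpiSC groups (2) was 4 by DESeq2 (7.09%) and 10 with only the groups compared (13.6%). It was 1 at a mean of at least 1 CPM (4.86%), with passage as a covariate (3.63%) and with total-count scaling (3.08%). With 1 library left out it was 0 to 4 (1.83% to 4.83%). In FS against EpiSC_AFX (10) it was 5 with total-count scaling (3.92%) and 6 to 12 with 1 library left out (1.98% to 6.62%). The cause was not tested.

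Of 1450 values for single genes, 1300 kept their direction and side of the threshold, 77 lost and 44 gained a call, and 29 changed sign, none of which was called in the fit reported. Egr1 between the FS lines was -0.70 with passage as a covariate, -0.68 without FS passages 4 and 5, and -0.60, -0.16 and -0.10 without FS replicate 3, 5 or 6 (-0.60 to 0.80 with 1 library left out). With line 5ar1 alone, FS against EpiSC_AF was 0.42 for Etv5, -0.17 for Fgfr1 and -0.42 for Fgfr2, and against EpiSC_AFX 0.066 for Etv5 and 0.076 for Fgf4. With 5ar3 alone Fgf4 was -1.28 against EpiSC_AF and Etv4 -0.76 against ES. Passage as a covariate gave 1.86 for Etv4 between the EpiSC groups, 0.066 for Etv5 in EpiSC_AFX against ES and 0.33 for Etv5 in FS against EpiSC_AF, where total-count scaling gave 0.0025, leaving out FS passages 4 and 5 gave 0.31, and leaving out FS replicate 5 or 6 gave 0.068 or 0.064 (-0.34 to 0.068 with 1 library left out). Between the EpiSC groups Spry2 was -0.12 without EpiSC_AF replicate 3 and -0.15 without EpiSC_AFX replicate 2, and Spry4 was -0.00046 without the latter (-0.15 to 0.25 and -0.00046 to 0.41 with 1 library left out). Passage slopes near 0 changed sign: Fgf4 was 0.0055 with total-count scaling, 0.0031 without ES replicate 4 and 0.013 without EpiSC_AFX replicate 1, Fgfr1 was -0.0021 without ES replicate 4, and Fgfr2 was -0.048 without ES replicate 4 and -0.030 without EpiSC_AFX replicate 1 or 2 (with 1 library left out, -0.076 to 0.013, -0.0021 to 0.039 and -0.048 to 0.17).

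No paired analysis was possible because the labels give no replicate numbers, only passages of separate lines. With a single line in each group but FS, line, medium and passage limit every comparison. Egr1 and Dusp4 in ES rest on few counts.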
